A study of Oryza sativa with 25 samples.

Results

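The photosynthetic carbon fixation genes OsrbcS, OsrcaA1 and R5P3E of rice, 3 genes of 17905 named in the probe annotation, were followed through 25 Affymetrix Rice Genome Arrays. They were measured by 6 of the 57381 probe sets. These were 1 chosen probe set of OsrbcS, with an identifier ending in S1_x_at, the S1_at probe set of R5P3E, and every probe set whose only annotated gene is OsrcaA1. The 4 OsrcaA1 probe sets are named here by the ends of their identifiers, 2.A1_a_at, 2.A2_a_at, 5.A1_x_at and 7.A1_x_at, and the plots carry all identifiers in full. In the RefSeq gene table OsrbcS is LOC4351966, R5P3E is LOC4331761 (also listed as RPE) and OsrcaA1 is LOC4351224. The arrays fall into 8 groups of Oryza sativa. Callus raised from seed for 3 weeks on MS medium at 30 °C was sampled as growing callus and after 2, 4, 6 and 8 days on regeneration medium, with 3 arrays for each of these 5 groups. Shoots of 4 weeks came from a growth chamber at 30 °C (3 arrays), blades of leaf 4, called young leaf, from a greenhouse (4 arrays), and whole roots of plants at the same leaf stage from a greenhouse (3 arrays). The labels call the arrays of a group biological replicates and name no cultivar, mutant or transgene. Each callus and organ group is a mixture of cell types, so fewer cells of a type and less RNA per cell cannot be told apart in any value below. Shoot differs from young leaf in organ and place of growth at once, and its age is given in weeks where young leaf is given by leaf number. Later callus differs from growing callus in medium and in time in culture at once.

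Rubisco, the enzyme that joins CO2 to ribulose 1,5-bisphosphate in the chloroplast, is built from large subunits encoded in the plastid genome and small subunits encoded by a nuclear gene family to which OsrbcS belongs. Rubisco activase, the product of OsrcaA1, uses ATP to free Rubisco from tightly bound sugar phosphates that block its active sites. Ribulose-5-phosphate 3-epimerase, R5P3E, turns xylulose 5-phosphate into ribulose 5-phosphate and so helps to renew the CO2 acceptor in the Calvin-Benson cycle. The same reaction also belongs to the pentose phosphate pathway, which runs in tissues without photosynthesis. Green leaf blades are rich in transcripts of the small subunit and the activase, and roots and unregenerated callus are poor in working chloroplasts.

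Levels are given as deposited intensities, on a linear scale on which the 75th percentile of every array is 1, and they are compared between groups only within a probe set. The array medians lay between 0.220 and 0.355. Changes are log2 differences of quantile-normalized values from a limma fit over all arrays, with p-values adjusted by Benjamini-Hochberg over the 37218 probe sets tested, and a change was called at an adjusted p under 0.05 and a fold of at least 2. Folds of mean deposited intensity are named as such, and they can differ from the log2 change because the folds were not quantile normalized. The organ labels were checked against marker genes listed for green leaf (3 of 5 listed genes with a probe set), root (3 of 5) and shoot meristem (3 of 4). The summed intensity of the root markers LSI1 and LSI2, silicon transporters, and OsPIP2;5, an aquaporin, was 174.0 to 195.5 in root and at most 8.68 in any array of another group. The summed intensity of the green leaf markers CAB2R, RCABP69 (chlorophyll a/b-binding proteins) and PETE (plastocyanin) was 153.2 to 166.0 in shoot, 372.8 to 527.8 in young leaf and 0.822 to 0.850 in root. The summed intensity of the meristem homeobox genes OSH1, OSH6 and OSH71 was 18.8 to 25.6 in shoot, 0.476 to 0.684 in young leaf and 2.25 to 2.75 in root.

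All 6 probe sets had their highest level in young leaf, and no young leaf array overlapped any other array. The share of all probe sets tested with this pattern was not counted, and 4 of the 6 probe sets measure OsrcaA1. In the small subunit gene OsrbcS the lowest young leaf array was 24.5 times the highest of the other 21 arrays. For R5P3E that ratio was 13.7, and for the 4 OsrcaA1 probe sets it was between 4.44 and 6.11. Below young leaf the 3 genes ordered the groups differently, as the plot of array values shows.

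**Figure D1:**
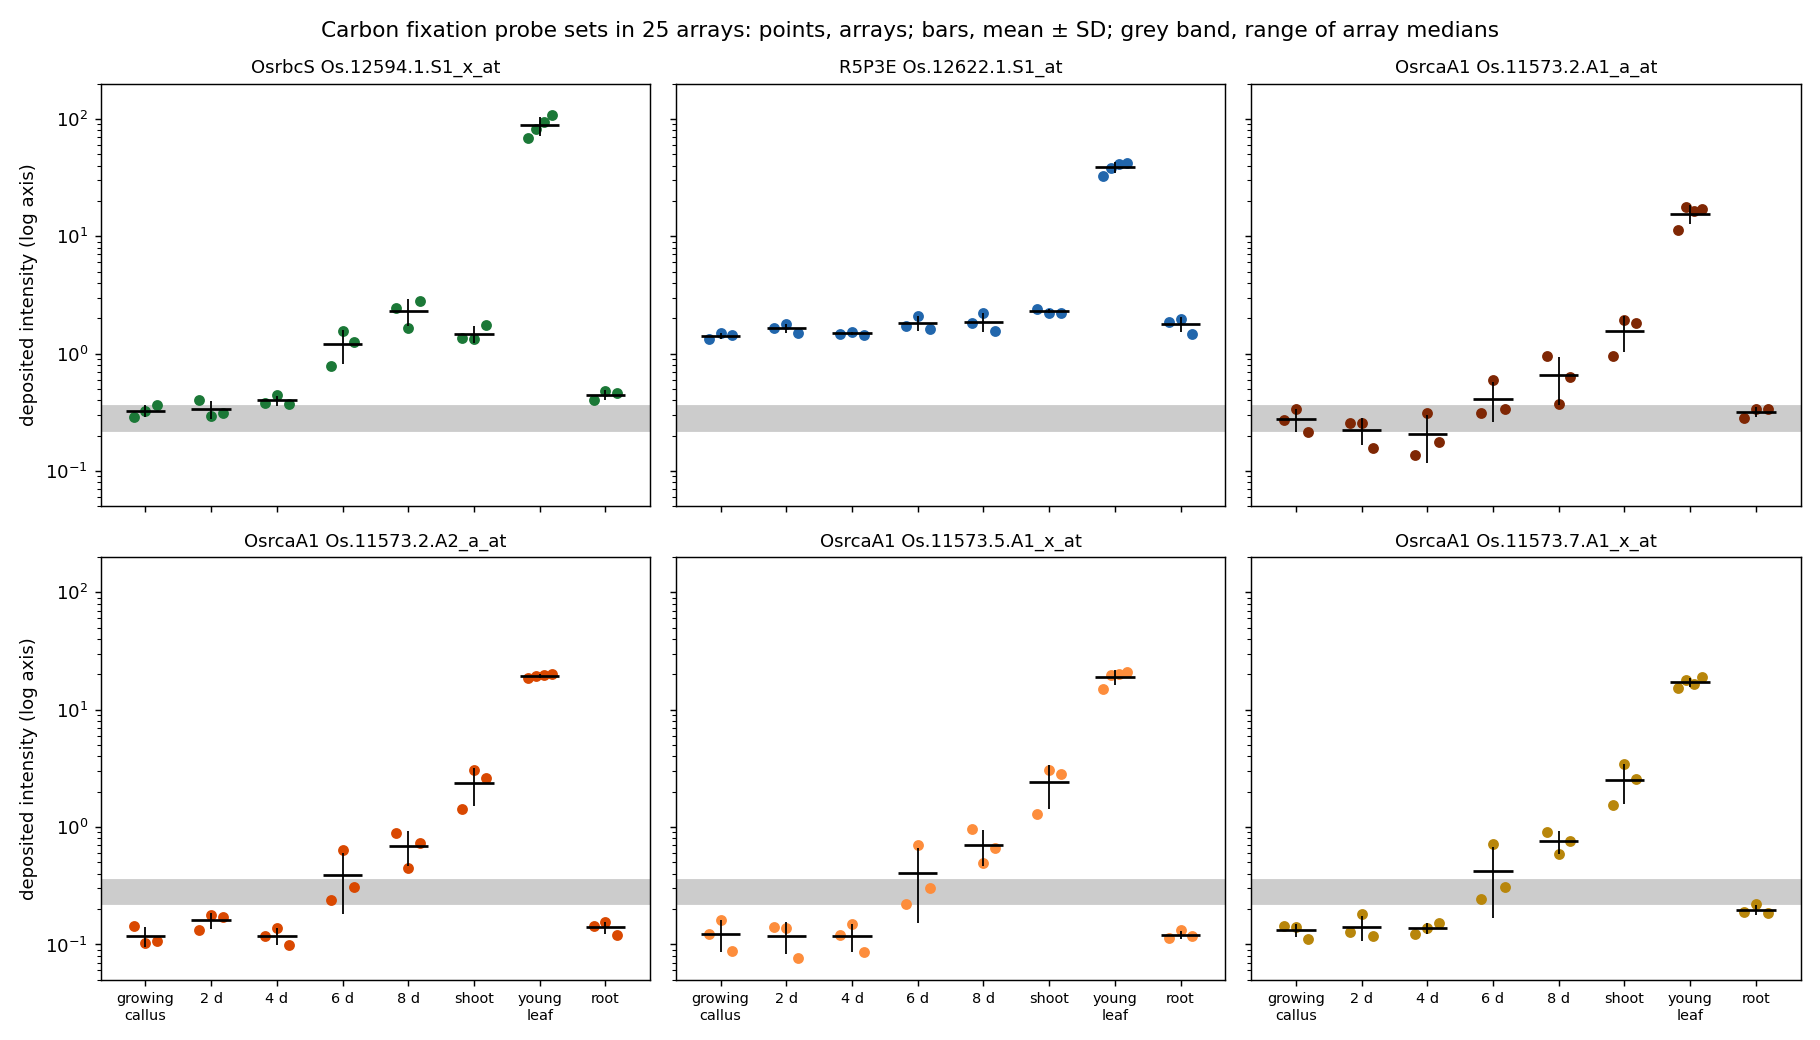
Deposited intensity (log axis) of the 6 carbon fixation probe sets in 8 groups; points are arrays, horizontal bars group means, vertical bars the SD, and the grey band the range of array medians (0.220 to 0.355). OsrbcS and OsrcaA1 lay at or below the band or just above it in growing callus, in callus after 2 and 4 days and in root, while R5P3E lay above it in every array.

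In callus OsrbcS stayed low for 4 days and was higher after 6 and 8 days. Its arrays read 0.291, 0.322 and 0.364 in growing callus, 0.402, 0.294 and 0.315 after 2 days and 0.381, 0.445 and 0.375 after 4 days. After 6 days they read 0.788, 1.56 and 1.26, and after 8 days 2.47, 1.64 and 2.80. Every array of 6 and of 8 days stood above all 9 arrays of growing callus and the earlier times, and the arrays of 8 days did not overlap those of 6 days. The rise over growing callus was 1.74 on the log2 scale after 6 days (SE 0.218, limma adjusted p 6.1e-06) and 2.69 after 8 days (SE 0.218, adjusted p 1.12e-08), which was 7.07-fold in mean deposited intensity. After 2 and 4 days the differences from growing callus were 0.03 and 0.34 on the log2 scale, with limma adjusted p of 0.957 and 0.364. The step from 4 to 6 days was called, at 1.41 (adjusted p 5.22e-04). The step from 6 to 8 days was not, at 0.95 with a 95% interval of 0.50 to 1.40 and an adjusted p of 0.259. Without replicate 2 of 8 days, the lowest of the 3, that step was 1.16 with an adjusted p of 0.00856. Over 2 to 8 days OsrbcS rose by 0.47 per day (adjusted p 3.65e-09). The difference of growing callus from root was -0.12 with a 95% interval of -0.58 to 0.33.

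OsrcaA1, the activase gene, was also low for 4 days and higher later. The probe set 2.A2_a_at read 0.143, 0.102 and 0.106 in growing callus and 0.133, 0.178 and 0.173 after 2 days. It read 0.118, 0.138 and 0.0996 after 4 days, 0.239, 0.635 and 0.306 after 6 days and 0.897, 0.447 and 0.728 after 8 days. The arrays of 6 and 8 days overlapped each other but none of the earlier arrays. Relative to growing callus it rose by 1.54 after 6 days (SE 0.282, limma adjusted p 5.1e-04) and by 2.35 after 8 days (SE 0.282, adjusted p 2.4e-06). OsrcaA1 5.A1_x_at read 0.959, 0.497 and 0.658 after 8 days, against 0.123, 0.161 and 0.0871 in growing callus. OsrcaA1 7.A1_x_at read 0.917, 0.586 and 0.764 after 8 days, against 0.144, 0.141 and 0.112 in growing callus. Their groups did not overlap, and they rose by 2.30 (adjusted p 9.95e-06) and 2.33 (adjusted p 1.75e-06) after 8 days and by 1.47 and 1.43 after 6 days.

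The remaining OsrcaA1 probe set, 2.A1_a_at, moved less. It read 0.954, 0.376 and 0.636 after 8 days, against 0.275, 0.336 and 0.215 in growing callus, and its growing callus mean was 1.76% of that of young leaf where the other 3 had 0.603% to 0.774%. The groups did not overlap, and it rose by 1.11 on the log2 scale (SE 0.299, limma adjusted p 0.0095). Without replicate 1 of 8 days, its highest array, the rise was 0.81 with an adjusted p of 0.0839, and without replicate 3 of growing callus, its lowest, it was 0.97 and so under 2-fold. After 6 days its difference was 0.52 and was not called (adjusted p 0.287). The other 3 probe sets lay above the array median in only 12 of 25 arrays, those of 8 days, shoot and young leaf and 2 of 6 days, so their log2 changes against growing callus and root depend on the added constant of 0.0274. They passed the filter on low values through these groups, and that they differ is therefore no support by itself.

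R5P3E, the epimerase gene, was already well above the array median in growing callus. Its arrays read 1.33, 1.49 and 1.43 in growing callus, 1.65, 1.78 and 1.49 after 2 days and 1.48, 1.53 and 1.45 after 4 days. After 6 days they read 1.72, 2.11 and 1.61, and after 8 days 1.82, 2.23 and 1.57. All arrays of 6 and 8 days stood above all 3 of growing callus, by little. The difference after 8 days was 0.42 on the log2 scale with a 95% interval of 0.11 to 0.72 and a limma adjusted p of 0.0482, which was under 2-fold and so was not called. Its change per day was 0.05 (adjusted p 0.189).

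Counted over the 6 probe sets, none was called after 2 or after 4 days relative to growing callus, where 4.07% and 5.21% of all probe sets tested were called in either direction. After 6 days 4 were higher, against 3.72% of all probe sets tested. After 8 days 5 were higher, against 5.08%. The changes of all 6, R5P3E included, ran from 0.42 to 2.69, where the median over all probe sets was -0.04. Between 4 and 6 days 4 were higher (1.56% of all), and between neighbouring times before and after that step none was called, where 0.00537% of all were called both between 2 and 4 days and between 6 and 8 days. Of these 4, the 3 OsrcaA1 probe sets 2.A2_a_at, 5.A1_x_at and 7.A1_x_at differed by 1.04, 1.003 and 0.87 without replicate 2 of 6 days and were not called (adjusted p 0.0796, 0.131 and 0.108). OsrcaA1 7.A1_x_at was also not called without replicate 1 or 2 of 4 days (adjusted p 0.0555 and 0.0549), nor 5.A1_x_at without replicate 3 of 4 days (adjusted p 0.0508). In the change per day 5 were called higher (4.72% of all). These counts are not counts of independent genes, since 4 of the 6 probe sets measure OsrcaA1.

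**Figure D2:**
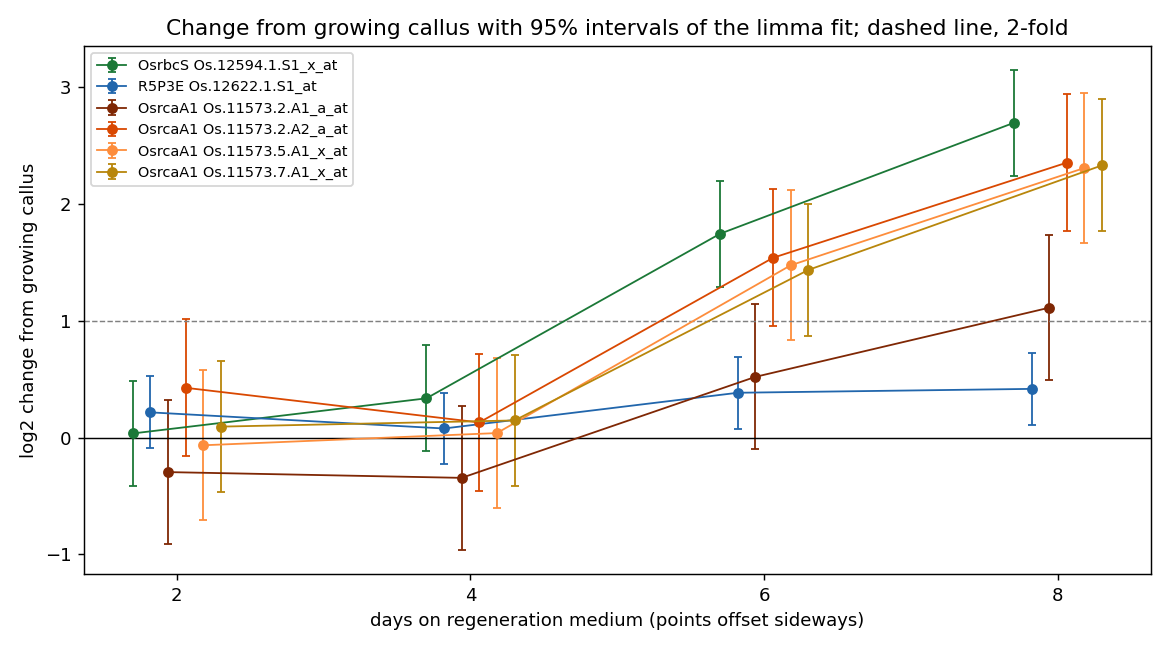
Log2 change from growing callus (vertical axis) after 2, 4, 6 and 8 days on regeneration medium (horizontal axis, points offset sideways) for the 6 probe sets, with 95% intervals of the limma fit. All intervals cover 0 after 2 and 4 days, and after 8 days OsrbcS stood at 2.69, 3 OsrcaA1 probe sets between 2.30 and 2.35, 2.A1_a_at at 1.11 and R5P3E at 0.42.

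The 3 genes shared their highest replicate after 6 days but not after 8 days, and 4 of the 6 probe sets counted here measure OsrcaA1. After 6 days replicate 2 was the highest array in 6 of 6 probe sets, R5P3E included. After 8 days replicate 2 was the lowest in 5 of 6, the exception being R5P3E, where it was the highest. The highest array after 8 days was replicate 3 for OsrbcS and replicate 1 for each OsrcaA1 probe set. The green leaf markers moved over the same days. Their summed intensity was 0.525 to 0.907 in growing callus, 1.305 to 1.386 after 2 days, 1.204 to 1.909 after 4 days, 6.70 to 13.4 after 6 days and 8.67 to 10.5 after 8 days, and none of the 3 genes was at 0. Up to 4 days the larger sums came with PETE, which averaged 0.228 in growing callus, 0.865 after 2 days and 1.12 after 4 days. CAB2R averaged 0.161, 0.157 and 0.133 in those groups at its S1_a_at probe set and 0.203, 0.183 and 0.157 at its S1_s_at probe set, and RCABP69 averaged 0.128, 0.153 and 0.116. After 6 and 8 days CAB2R averaged 2.62 and 1.78 at S1_a_at and 0.735 and 0.569 at S1_s_at, and RCABP69 0.515 and 0.532, while OsrbcS averaged 1.204 and 2.30. The CAB2R means were thus lower after 8 than after 6 days, where that of OsrbcS was higher, and none of these steps was called. The summed meristem markers were 1.34 to 2.83 after 6 days and 2.25 to 2.74 after 8 days, against 0.979 to 1.22 in growing callus. In root they were 2.25 to 2.75, so this sum did not separate callus after 8 days from root. The part of a change in cell makeup in the rise of OsrbcS and OsrcaA1 was not tested. PETE read 3.69, 7.72 and 4.59 after 6 days and 6.94, 5.98 and 6.65 after 8 days, so replicate 2 was its highest array at 6 days and its lowest at 8 days. CAB2R read 2.55, 3.80 and 1.51 after 6 days and 2.13, 1.96 and 1.25 after 8 days at S1_a_at, and RCABP69 read 0.455, 0.875 and 0.214 after 6 days and 0.706, 0.511 and 0.379 after 8 days. In both of these replicate 2 was the highest array at 6 days but replicate 3 the lowest at 8 days.

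Among organs, the contrast of young leaf with root was the widest. OsrbcS read 68.4, 81.3, 94.4 and 107.7 in young leaf, against 0.399, 0.481 and 0.464 in root, a log2 difference of 7.82 (SE 0.204, limma adjusted p 2.06e-19) and 196.4-fold in mean deposited intensity. R5P3E read 32.9, 38.3, 41.2 and 42.1 in young leaf, against 1.88, 1.97 and 1.48 in root, a difference of 4.24 (SE 0.138, adjusted p 9.13e-18) and 21.8-fold. The 4 OsrcaA1 probe sets averaged 15.6 to 19.4 in young leaf, against 0.121 to 0.321 in root, with differences of 5.76 to 7.24. All 6 were called higher, where 15.5% of all probe sets tested were. In young leaf replicate 1 was the lowest array in 6 of 6 probe sets. OsrbcS lay between the 99.83 and 99.94 percentiles of the young leaf arrays, and in root between the 55.2 and 60.4 percentiles.

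Shoot stood far below young leaf for all 3 genes, but not by the same factor. OsrbcS read 1.35, 1.33 and 1.76 in shoot, 59.6-fold below young leaf in mean deposited intensity (log2 change -5.85, SE 0.204, limma adjusted p 5.96e-17). R5P3E read 2.40, 2.24 and 2.24 in shoot, 16.9-fold below young leaf (log2 change -3.89, SE 0.138). The OsrcaA1 probe sets were 6.82- to 9.97-fold below young leaf (log2 changes of -3.24 to -2.70). OsrcaA1 2.A2_a_at, for one, read 1.42, 3.05 and 2.60 in shoot, against 18.6, 19.3, 19.7 and 20.1 in young leaf. All 6 were called lower, where 15% of all probe sets tested were. The shoot mean as a share of the young leaf mean was 1.68% for OsrbcS, 5.93% for R5P3E and 10.03% to 14.7% for OsrcaA1. The chlorophyll a/b-binding protein gene CAB2R kept 45.9% and 64.3% of its young leaf level in shoot by its 2 probe sets, PETE 16.2% and RCABP69 8.76%. The meristem markers were higher in shoot than in young leaf, as their sums above show, and their part in these differences was not tested.

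Against root, shoot was higher in 5 of the 6 probe sets, where 15.5% of all probe sets tested were higher. OsrbcS differed by 1.97 (SE 0.218, limma adjusted p 5.57e-08) and the OsrcaA1 probe sets by 2.52 to 4.31, and for each the arrays did not overlap. R5P3E differed by 0.35 with a 95% interval of 0.05 to 0.66, under 2-fold, although its arrays did not overlap either.

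**Figure D3:**
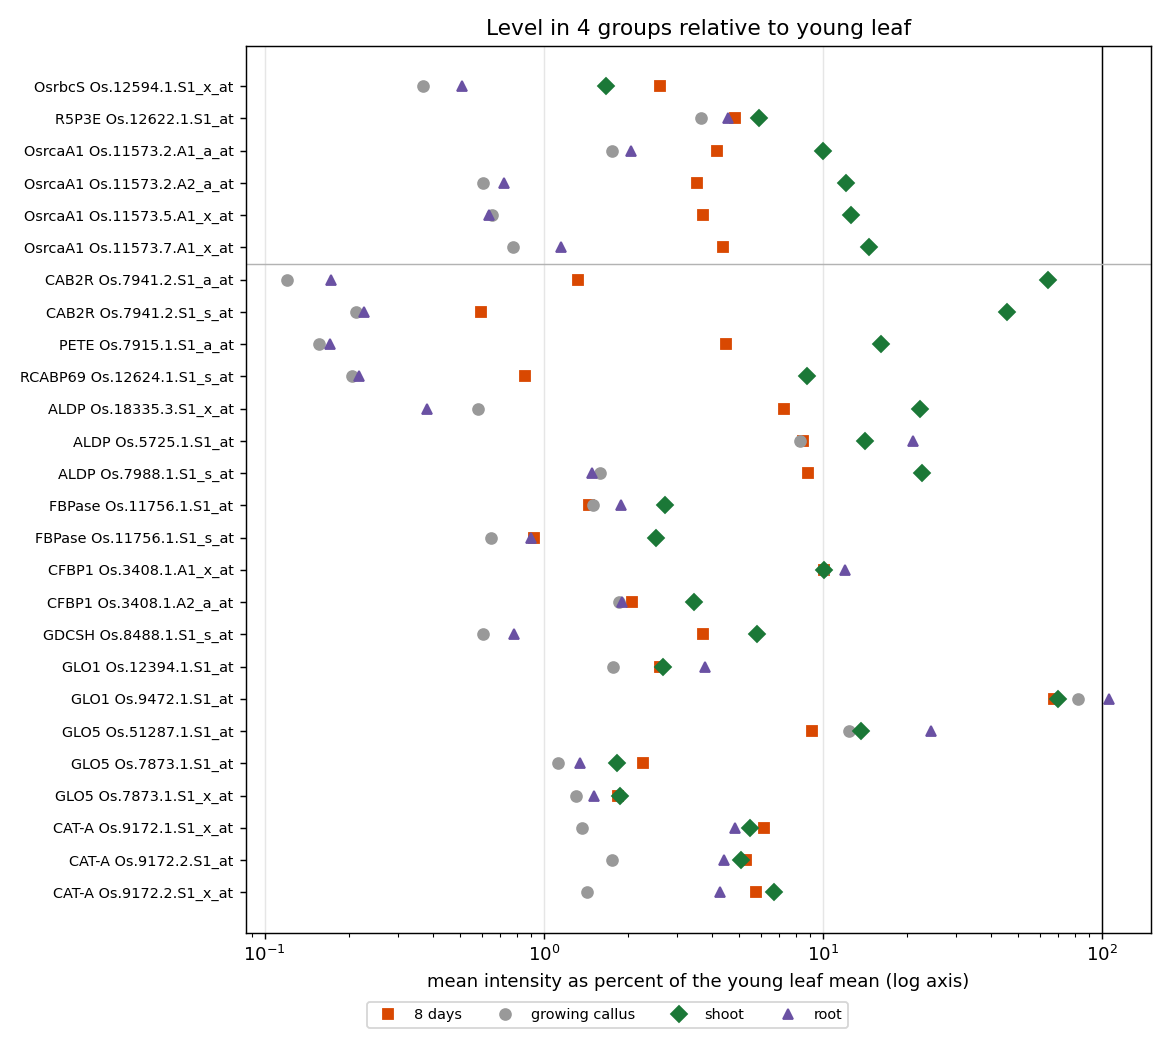
Mean deposited intensity in callus after 8 days, growing callus, shoot and root as a percentage of the young leaf mean (log axis) for the 6 probe sets, above the grey line, and for green leaf markers and selected pathway genes below it. The pathway genes shown are a choice from the lists: ALDP, FBPase, CFBP1, GDCSH, GLO1, GLO5 and CAT-A. List genes called lower in young leaf than in root, among them GAPC3, FBA3, FBA1, TPI, RPEcyt and PPDK2, are not shown. In shoot OsrbcS stood at 1.68% of young leaf and CAB2R at 45.9% and 64.3%, and after 8 days OsrbcS stood at 2.62% and CAB2R at 0.596% and 1.33%.

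Callus after 8 days was compared with the organs to place the late rise. It was lower than young leaf in 6 of 6 probe sets, where 16.3% of all probe sets tested were lower. OsrbcS was 38.2-fold lower than in young leaf in mean deposited intensity (log2 change -5.25), R5P3E 20.6-fold (log2 change -4.23) and OsrcaA1 22.7- to 28.1-fold (log2 changes of -4.72 to -4.40). The 3 genes thus reached 2.62%, 4.85% and 3.56% to 4.41% of their young leaf means. Against shoot the calls differed between genes. The 4 OsrcaA1 probe sets were lower after 8 days than in shoot, by log2 changes of -1.74 to -1.25 (limma adjusted p 2.11e-05 to 0.00159), where 9.77% of all probe sets tested were lower. Without replicate 2 of 8 days, OsrcaA1 2.A1_a_at differed from shoot by -0.93 and was no longer called. OsrbcS was not called: it read 2.47, 1.64 and 2.80 after 8 days, against 1.35, 1.33 and 1.76 in shoot, a difference of 0.60 with a 95% interval of 0.14 to 1.05 and an adjusted p of 0.0309, under 2-fold and with overlapping arrays. R5P3E differed from shoot by -0.34 (95% interval -0.65 to -0.03, adjusted p 0.0685). Against root, OsrbcS was higher by 2.57 and the OsrcaA1 probe sets by 1.28 to 2.58, 5 called higher in all where 18.1% of all probe sets tested were, and R5P3E differed by 0.01 with a 95% interval of -0.29 to 0.32. OsrcaA1 2.A1_a_at differed from root by 0.97, under 2-fold, without replicate 1 of 8 days. Between growing callus and root 0 of the 6 were called, where 33.9% of all probe sets tested were called in either direction. R5P3E was lower in growing callus than in root by less than 2-fold, at -0.40 with a 95% interval of -0.71 to -0.10 (adjusted p 0.0219) and with overlapping arrays. For OsrbcS and OsrcaA1 7.A1_x_at the deposited intensities of growing callus lay below those of root without overlap, with log2 changes of -0.12 and -0.17 (adjusted p 0.644 and 0.602).

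Arranged from lowest to highest mean, OsrbcS ran through growing callus, 2 days, 4 days, root, 6 days, shoot, 8 days and young leaf. The arrays of neighbours overlapped everywhere in that order except between root and 6 days and between 8 days and young leaf. For each OsrcaA1 probe set the upper end of the order was 6 days, 8 days, shoot and young leaf, and shoot overlapped neither 8 days nor young leaf. The lower end held growing callus, 2 days, 4 days and root in orders that differed between the 4 probe sets. R5P3E ran through growing callus, 4 days, 2 days, root, 6 days, 8 days, shoot and young leaf, and only shoot and young leaf were free of overlap with the group below them. The 21 R5P3E arrays outside young leaf covered 1.33 to 2.40, with a median of 1.65.

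Whether the genes changed by different amounts was tested on differences between genes within each array, the OsrcaA1 value being the mean of its 4 probe sets. OsrbcS minus OsrcaA1 averaged -0.51 ± 0.59 in shoot (SD, n = 3) and 2.38 ± 0.16 in young leaf (SD, n = 4), a difference of -2.89 with no overlap, with an exact two-sided permutation p of 0.0286, the smallest that 3 against 4 arrays allow. The same difference averaged 1.69 ± 0.28 after 8 days and -0.51 ± 0.59 in shoot (SD, n = 3 each), 2.20 apart with no overlap. R5P3E minus OsrcaA1 averaged 1.42 ± 0.67 after 8 days and 3.03 ± 0.16 in growing callus (SD, n = 3 each), a difference of -1.61. For OsrbcS minus R5P3E the difference over the same pair of groups was 2.27. With 3 against 3 arrays an exact permutation p cannot go below 0.1. Over all 18 differences the lowest p after Benjamini-Hochberg adjustment was 0.0644. Since only 9 of the 18 involve a group of 4 arrays, no adjusted p could go below 0.0571 whatever the data, so these tests could not pass 0.05. R5P3E minus OsrcaA1 was 0.34 higher after 8 days than in young leaf, with overlapping arrays (exact permutation p 0.457).

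OsrbcS is covered by 3 further probe sets and the small subunit family by others, and they did not give 1 picture. The OsrbcS probe set ending in A1_at averaged 0.417 after 8 days, against 0.431 in growing callus, a log2 difference of 0.08 (limma adjusted p 0.811), and 2.72 in young leaf, against 0.862 in root, a difference of 1.61. Of the 2 ending in A1_x_at, the one tested averaged 0.133 after 8 days, against 0.102 in growing callus, a difference of 0.64 that was under 2-fold (adjusted p 0.026), and 8.15 in young leaf, against 0.0905 in root, a difference of 6.25. Both were thus called higher in young leaf than in root and neither was called in callus. The tested A1_x_at probe set was above the array median in only 4 of 25 arrays. Outside young leaf its highest group mean was 0.152, in shoot. It passed the filter through young leaf, so its call there is no support by itself. Its callus means lay under the array medians, so the lack of a call there shows little. The other A1_x_at probe set lay at or below the array median in all 25 arrays and was not tested.

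Another 5 probe sets were assigned to several genes at once, among them small subunit genes, and are not attributed to a gene here. Of these, 4 were tested. All 4 were called higher after 8 days than in growing callus, where 5.08% of all probe sets tested were. Their changes were 1.02 to 2.61 on the log2 scale (limma adjusted p 4.32e-05 to 0.00831). One of those ending in S1_x_at averaged 3.47 after 8 days and 0.633 in growing callus, and the one ending in S1_at averaged 0.328 after 8 days and 0.121 in growing callus. All 4 were higher in young leaf than in root, by 8.55 to 9.28 (15.5% of all probe sets tested). They were lower in shoot than in young leaf, by log2 changes of -6.94 to -5.24 (15% of all). The S1_s_at, S1_at and other S1_x_at probe sets were above the array median in only 12, 11 and 13 arrays. In growing callus they averaged 0.233, 0.121 and 0.177, under the medians of those arrays. They passed the filter through groups where they are high, so these calls are no support by themselves. Identifiers ending in _x_at mark probe sets that can detect related transcripts, which applies to the OsrbcS probe set followed here, so its values may include other small subunit transcripts. The same limit applies to OsrcaA1 5.A1_x_at and 7.A1_x_at, and it was not checked for any of them. The probe set of RBCS1, another small subunit gene, was above the array median in 0 arrays. The plastid gene for the large subunit, rbcL, had no single-gene probe set in the annotation.

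**Figure D4:**
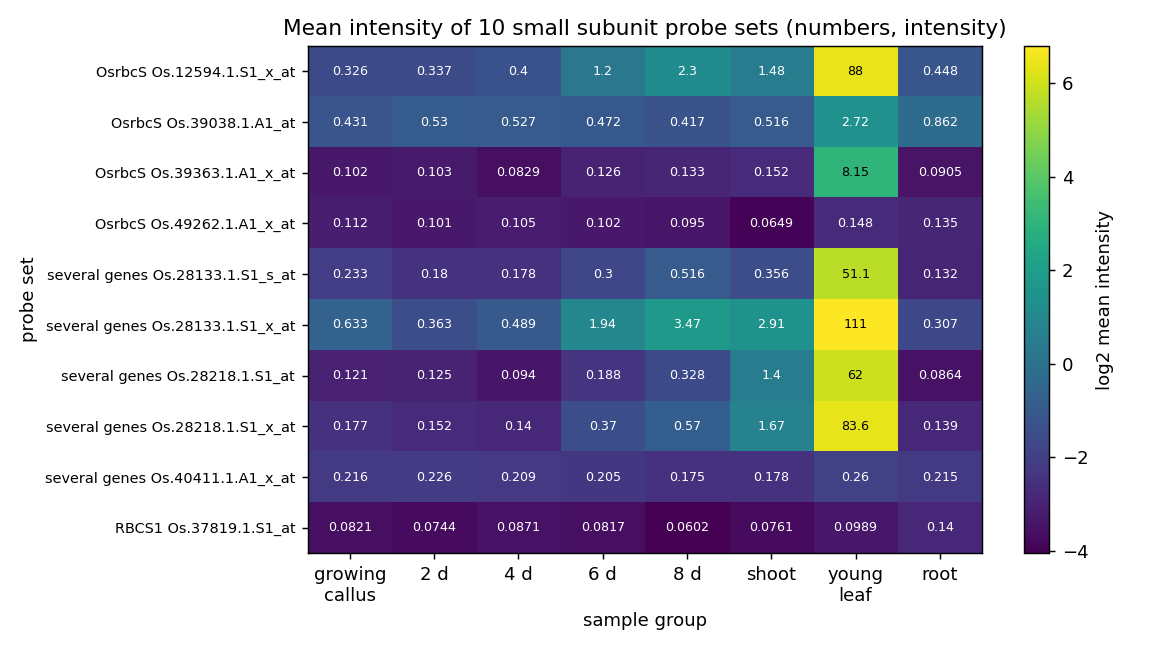
Mean deposited intensity of 10 small subunit probe sets in 8 groups, as numbers, with colour giving log2 of the mean; rows are the 4 OsrbcS probe sets, 5 probe sets of several genes and RBCS1. The OsrbcS S1_x_at probe set stood at 2.30 after 8 days and 0.326 in growing callus, while the OsrbcS A1_at probe set stood at 0.417 and 0.431 in those groups.

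Other enzymes that catalyse steps of the Calvin-Benson cycle were drawn from a list matched by symbol, of which 12 genes had 22 probe sets and 20 of these were tested. The list is not one of Calvin-Benson genes alone. It names 1 tested gene as plastid, ALDP, with 3 probe sets, and 5 as cytosolic, GAPC1, GAPC2, GAPC3, CFBP1 and RPEcyt, with 9, and gives no form for FBPase, TPI, FBA1 and FBA3, with 8. Its counts and medians therefore mix the cycle with glycolysis and other cytosolic pathways. After 8 days 2 were higher than in growing callus and 0 lower (5.08% and 2.78% of all probe sets tested), with a median change of 0.05 where all probe sets had -0.04. Both belong to ALDP, the plastid fructose-bisphosphate aldolase. The one ending in S1_x_at averaged 2.48 after 8 days, against 0.199 in growing callus (log2 change 3.47, SE 0.218, limma adjusted p 2.59e-10), and the one ending in S1_s_at averaged 1.70, against 0.305 (log2 change 2.33). The remaining ALDP probe set averaged 0.0444 after 8 days, against 0.0433 in growing callus, both under the array medians, and was not called. FBPase, a fructose-1,6-bisphosphatase, differed by 0.64 at its S1_s_at probe set, under 2-fold, and by 0.15 at its S1_at probe set. RPEcyt, the cytosolic counterpart of R5P3E, differed by 0.14 and 0.21 at its 2 probe sets, neither of them called.

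Between young leaf and root the same 20 probe sets of mixed forms divided, with 7 higher and 8 lower (15.5% and 16.5% of all probe sets tested) and a median of -0.71 where all probe sets had -0.02. The higher ones belong to ALDP (all 3 probe sets), FBPase and CFBP1, a cytosolic fructose-1,6-bisphosphatase. FBPase averaged 27.4 in young leaf at its S1_s_at probe set, against 0.246 in root, a log2 difference of 6.94, and ALDP averaged 34.1 in young leaf at its S1_x_at probe set, against 0.130 in root, a difference of 7.98. The lower ones belong to GAPC3, FBA3, FBA1, TPI and RPEcyt. Of the 3 plastid probe sets, all of the 1 gene ALDP, 3 were higher and 0 lower. Of the 9 cytosolic ones 2 were higher and 3 lower, and of the 8 with no form given 2 were higher and 5 lower. The ALDP probe set ending in S1_at was above the array median in only 4 arrays and averaged 0.520 in young leaf and 0.110 in root. It passed the filter through young leaf, so its calls in comparisons with young leaf are no support by themselves. The FBPase S1_s_at and CFBP1 A2_a_at probe sets were above the array median in only 10 and 7 arrays. CFBP1 A2_a_at averaged 9.32 in young leaf and 0.178 in root. These 2 probe sets also passed through groups where they are high, so the same limit applies to their calls. GAPC3, a cytosolic glyceraldehyde-3-phosphate dehydrogenase of glycolysis, averaged 4.63 in young leaf at its S1_at probe set, against 154.4 in root. RPEcyt averaged 3.01 in young leaf at its S1_s_at probe set, against 5.95 in root (log2 change -1.03, adjusted p 1.46e-07), opposite in direction to R5P3E. In shoot against young leaf, 7 of the 20 were lower and 6 higher (15% and 16.5% of all probe sets tested), and the 7 lower ones were those of ALDP, FBPase and CFBP1. Both comparisons use the young leaf arrays.

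Enzymes that recycle the product of Rubisco's reaction with oxygen or shuttle carbon between acids were drawn from a second list matched by symbol. This list of photorespiration and C4-type enzymes had 11 genes with 21 probe sets, of which 20 were tested. It does not separate forms that serve other pathways, so its counts and medians are not those of photorespiration alone. After 8 days 6 were higher than in growing callus and 1 lower (5.08% and 2.78% of all probe sets tested), with a median of 0.41 where all probe sets had -0.04. GDCSH, the H protein of glycine decarboxylase, averaged 0.991 after 8 days, against 0.162 in growing callus (log2 change 2.44, SE 0.176, limma adjusted p 1.93e-09). GLO4, a glycolate oxidase family gene, averaged 2.70, against 0.802 (log2 change 1.73), and NADP-ME, an NADP-malic enzyme, averaged 13.02, against 6.32 (log2 change 1.17). The 3 probe sets of CAT-A, a catalase, rose by 1.28 to 2.13, and PPDK1, a pyruvate phosphate dikinase, fell (log2 change -1.26). Between young leaf and root 9 were higher and 8 lower (15.5% and 16.5% of all probe sets tested), with a median of 0.24 where all probe sets had -0.02. GDCSH differed by 7.09 and the glycolate oxidase GLO5 by 6.11 at its S1_x_at probe set, while PPDK2 averaged 0.247 in young leaf, against 106.9 in root (log2 change -8.73). The tested GDCSH probe set was above the array median in only 13 arrays and averaged 0.209 in root. It passed the filter through groups where it is high, so its calls are no support by themselves.

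**Figure D5:**
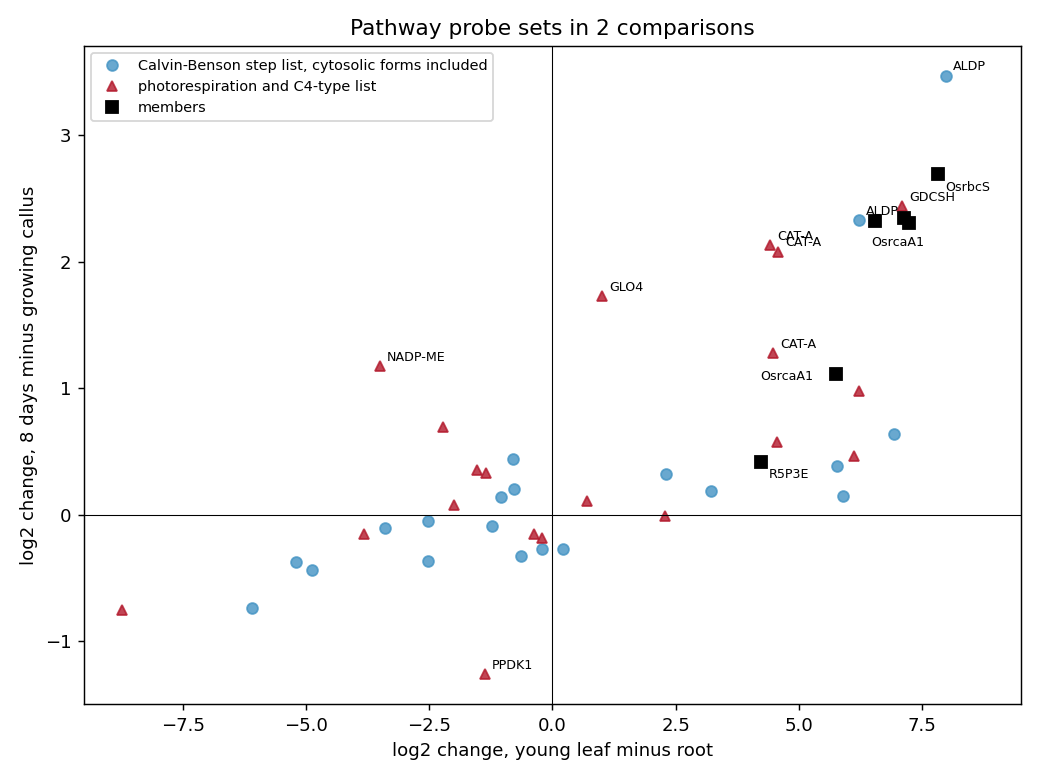
Log2 change after 8 days against growing callus (vertical axis) and in young leaf against root (horizontal axis) for the 6 carbon fixation probe sets (squares), the list of Calvin-Benson steps, cytosolic forms included (circles) and the photorespiration and C4-type list (triangles); list probe sets called after 8 days are labelled with their gene. OsrbcS lay at 7.82 and 2.69 and R5P3E at 4.24 and 0.42, and ALDP and GDCSH reached 3.47 and 2.44 on the vertical axis.

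Among other single-gene, named probe sets, those most like each member were ranked by the Pearson correlation of their 8 group means of normalized log2 values, a description in which the young leaf mean weighs heavily. For OsrbcS the 5 closest of 2875 were ACA8 (r = 0.990, at low levels of 0.191 to 0.608 in the groups shown here), GDCSH (0.984), BGLU16 by 2 probe sets (0.982 and 0.981) and OsPEX11-4 (0.981). For R5P3E they were the aquaporin gene OsPIP2;7 (0.996), FBPase (0.995), FTSH1 (0.994), GLO5 (0.993) and CEST (0.993). For the mean of OsrcaA1 they were RCABP69 (0.994), CYP714C2 (0.992), ADI1 (0.991), LP02 (0.990) and ALDP (0.989). CYP714C2 was also at low levels, with means from 0.0947 in growing callus to 0.305 in young leaf. As many as 28, 74 and 36 probe sets passed 0.95 for OsrbcS, R5P3E and OsrcaA1, so the leading names stand close to many others. Among the members the correlation over 8 group means was 0.9499 for OsrbcS with R5P3E, 0.953 for OsrbcS with OsrcaA1 and 0.895 for R5P3E with OsrcaA1. Without young leaf, over 7 group means, these were 0.694, 0.860 and 0.852. Among the 4 OsrcaA1 probe sets it was 0.984 to 0.999, with 2.A1_a_at in the 3 lowest pairs.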

How the data were processed

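The authors deposited 1 linear intensity per probe set and array, scaled so that the 75th percentile of an array is 1. The submitters' processing notes list GCOS 1.3. How probe signals were summarised, corrected for background and called as detected is not given in the sources used here. Per the labels' protocols, biotinylated cRNA was prepared from 500 ng of total RNA, and replicate 2 of growing callus and of the 2- and 4-day callus holds too much poly(A) control. A pseudocount of 0.0274, 10% of the overall median, was added to the deposited intensities before log2 transformation. Quantile normalization followed, since the array medians differed by 1.61 times and the limit was 1.5. After removal of 187 control probe sets, those higher than the median in 3 or more arrays (37218 of 57194) were tested. limma 3.58.1 (R 4.3.3) fitted 8 group means with 17 residual degrees of freedom. A change per day is a linear contrast over 2, 4, 6 and 8 days and was called at 2-fold over 6 days. The fit was tested on simulated data with known changes. Precision is limited by the number of arrays. Between replicates the correlation over probe sets was 0.964 to 0.989, and no 2 arrays were identical.

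The probe annotation gave 1 gene to 22436 probe sets, several to 95 and none to 34850. Symbols came from the RefSeq gene table. Symbol matches that belong to other functions, such as RPE1 for a gibberellin enzyme, were left out. No sequence and no coordinate is printed. Members and gene lists were chosen with earlier results of these data known. The genes named are all members, the 5 probe sets most like each, and the 3 list members of smallest adjusted p in 8 days against growing callus and in young leaf against root. Further list members were named after their values were seen. Whether same-numbered arrays deviate together was checked on deviations from group means. The 84 correlations ran from -0.28 to 0.39 with a median of 0.01, and 17 were over 0.1. In 1 of 28 pairs of groups, growing callus with 4 days, all 3 were over 0.1 (0.210, 0.189 and 0.124). Those arrays may be paired by number, which the labels do not state. The 3 correlations are not independent, since deviations from the same group mean are tied to each other. The part of the poly(A) excess in replicate 2 was not tested. Differences between members within arrays were tested by exact permutation. Alternatives were a pseudocount of 50% of the median, the deposited scaling, no filter, the replicate number as a block, only the compared groups, omission of the 3 poly(A) arrays, a variance trend, and omission of each array in turn.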

Additional observations from a re-analysis of the deposited data

How the results depend on the processing

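Of 630 values of the 90 member changes under 7 other settings, 615 kept their direction and their side of the call, and of 594 values with 1 array left out, 564 did. For OsrcaA1 2.A1_a_at the rise after 8 days was 0.89 with the larger pseudocount and its excess over root 0.88 with the deposited scaling, both under 2-fold. The step from 4 to 6 days fell under the call for OsrcaA1 2.A2_a_at and OsrcaA1 7.A1_x_at with the larger pseudocount (0.98 and 0.92), for OsrcaA1 7.A1_x_at without the poly(A) arrays (1.201) and, with only the compared groups, for OsrcaA1 2.A2_a_at (1.41), OsrcaA1 5.A1_x_at (1.43) and OsrcaA1 7.A1_x_at (1.29). Direction turned only where no change was called: OsrcaA1 5.A1_x_at at 2 days (0.058) and OsrcaA1 2.A2_a_at at 4 days (-0.013) without the poly(A) arrays, and with the deposited scaling OsrcaA1 5.A1_x_at at 4 days (-0.047), OsrcaA1 7.A1_x_at between 2 and 4 days (-0.016), and in growing callus against root OsrcaA1 2.A1_a_at (-0.22), OsrcaA1 2.A2_a_at (-0.21) and OsrcaA1 5.A1_x_at (-0.0023). The causes were not tested.

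With 1 array left out, OsrbcS ran from -0.066 to 0.163 at 2 days and from 0.67 to 1.18 between 6 and 8 days. R5P3E ran from -0.11 to 0.17 between 6 and 8 days and from -0.13 to 0.14 in 8 days against root. OsrcaA1 2.A1_a_at ran from -0.27 to 0.18 between 2 and 4 days, from 0.81 to 1.42 at 8 days, from 0.97 to 1.58 in 8 days against root and from -1.57 to -0.93 in 8 days against shoot. OsrcaA1 2.A2_a_at ran from -0.031 to 0.264 at 4 days, from 1.04 to 1.68 between 4 and 6 days and from -0.078 to 0.218 in growing callus against root. OsrcaA1 5.A1_x_at ran from -0.18 to 0.0496 at 2 days, from -0.077 to 0.155 at 4 days, from -0.0056 to 0.221 between 2 and 4 days and from 1.003 to 1.756 between 4 and 6 days. OsrcaA1 7.A1_x_at ran from -0.0194 to 0.251 at 4 days, from -0.11 to 0.16 between 2 and 4 days and from 0.87 to 1.58 between 4 and 6 days.

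Counts over all probe sets that moved by over 1.5 times were those between 2 and 4 days (2; 1 with the larger pseudocount, 0 to 2 with 1 array left out), between 4 and 6 days (595; 390 with only the compared groups, 264 to 943 with 1 array left out) and between 6 and 8 days (2; 5 with no filter, 0 with only the compared groups, 1 to 344 with 1 array left out). The 344 came without replicate 2 of 8 days. The replicate number as a block changed no call among the 90 member changes, the rise of OsrbcS after 8 days staying at 2.69. For 4 days against growing callus, the pair of groups whose numbers passed the pairing check, the block moved the count of calls over all probe sets, 1940 without it, by under 1.5 times. Detection calls were not used, so changes from levels under the array median have no measured bound.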
